A study of Homo sapiens with 54 samples.

Results

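The genes described are DEPP1, HBP1, YPEL5, IRS2, INSR, BCL6, FOXO3, CITED2 and SESN1, 9 genes grouped as targets of FOXO transcription factors or as genes repressed by insulin, in HT-29 colon adenocarcinoma cells. They were matched by symbol to the platform annotation, which maps 18 of the 22215 non-control probe sets of the array to them. Of these, 15 carry 1 symbol and 3 are shared by FOXO3 and FOXO3B. A filter on low signal kept 14 of the 18, against 13422 of 22215 on the whole array, and 8 of the 9 genes had a kept probe set of their own. INSR had none. All 8 also passed the filter in untreated cells alone, so none was measured only through a group in which it was high. The genes were chosen by their measured signals in these arrays. The comparison of cells given insulin alone with untreated cells is taken as the one that chose them, so it is described without a test.

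HT-29 is an epithelial line, and every group, untreated cells included, had first received interferon-gamma (200 U/ml, 24 h). Of the 9 treatments 4 were single factors, namely 500 ng/ml insulin, 100 ng/ml EGF (epidermal growth factor), and TNF (tumour necrosis factor) at a low dose of 5 ng/ml or a high dose of 100 ng/ml. High TNF was also combined with that dose of insulin or of EGF, and low TNF was combined with 5 ng/ml insulin or 1 ng/ml EGF. The last group received no factor. RNA was taken at 4, 8 and 16 h in biological duplicate, which gave 27 groups and 54 arrays. All cells are of 1 line, and precision is limited by having 2 arrays in each group.

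FOXO proteins are transcription factors that bind a short DNA element and drive genes of cell cycle arrest, autophagy, stress defence and nutrient sensing. Insulin binds its receptor INSR, adaptors such as IRS2 carry the signal to PI3 kinase and AKT, and AKT phosphorylates FOXO proteins, which then leave the nucleus. FOXO targets include INSR and IRS2 themselves, so the pathway feeds back on its own receptor and adaptor.

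The RefSeq promoter windows (GRCh38.p14, 250 bases before to 50 after a transcription start) were searched for the FOXO binding element GTAAACA and the insulin response element CAAAACAA, both on either strand. The members had 18 windows. GTAAACA was found in 1 window of DEPP1, starting 180 bases before the transcription start, and in 1 of 2 windows of HBP1, starting 173 bases before it. Over all promoters 1202 of 35116 windows held it, or 3.42%. CAAAACAA was found in the IRS2 window on the opposite strand, 41 bases before the start, and in 589 windows in all, or 1.68%. The windows of the other 6 members held neither exact sequence. The 3 windows with a match are shown because they hold one of the elements. Each is written 5' to 3' along the gene, and capitals mark the element. They lie at chr10:44978760-44979059 on the minus strand, chr7:107168753-107169052 on the plus strand and chr13:109786534-109786833 on the minus strand. A match describes the sequence and is not evidence of binding.
DEPP1: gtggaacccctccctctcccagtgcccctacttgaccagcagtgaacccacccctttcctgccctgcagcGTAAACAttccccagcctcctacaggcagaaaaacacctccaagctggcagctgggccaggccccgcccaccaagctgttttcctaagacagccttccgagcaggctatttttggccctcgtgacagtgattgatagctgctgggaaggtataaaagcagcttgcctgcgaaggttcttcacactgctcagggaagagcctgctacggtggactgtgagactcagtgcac
HBP1: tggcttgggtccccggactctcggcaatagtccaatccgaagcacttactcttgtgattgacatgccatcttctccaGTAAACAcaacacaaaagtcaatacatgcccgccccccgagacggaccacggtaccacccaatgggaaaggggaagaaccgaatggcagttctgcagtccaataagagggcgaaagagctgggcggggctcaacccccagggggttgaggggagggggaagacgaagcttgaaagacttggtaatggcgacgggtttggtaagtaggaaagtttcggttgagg
IRS2: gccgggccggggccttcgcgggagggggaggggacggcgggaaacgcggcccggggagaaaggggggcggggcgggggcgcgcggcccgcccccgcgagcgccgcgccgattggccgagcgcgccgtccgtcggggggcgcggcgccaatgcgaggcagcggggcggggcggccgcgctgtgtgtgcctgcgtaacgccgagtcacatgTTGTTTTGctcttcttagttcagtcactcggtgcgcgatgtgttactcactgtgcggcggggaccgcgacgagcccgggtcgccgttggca

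Values are deposited MAS5 signals on a linear scale, 1 probe set for each gene, and levels of different genes cannot be compared because each probe set has its own response. A difference is the mean of the log2(signal + 12.49) differences at 4, 8 and 16 h unless a time is named, with its standard error after ±, over 6 arrays (n = 6) per treatment. The adjusted p is limma's F test over the 3 times with Benjamini-Hochberg adjustment over 13422 probe sets, and a gene is called when it is under 0.05. Fold changes on this scale understate the change of dim genes.

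The signals of replicate arrays correlated by 0.945 to 0.977 across probe sets. Of 10 colon epithelial markers 8 were kept, with medians up to 25990 for KRT18, while CDX1 and CDX2, which define the intestinal lineage, were not. Of 4 leukocyte markers CD3E, CD14 and ITGAM were kept, with medians of 132, 89.4 and 129, while PTPRC, which defines leukocytes, lay between 3.09 and 57.7 and was not. Of 5 fibroblast or endothelial markers COL1A1, COL1A2 and PECAM1 were kept, with medians of 388, 86.0 and 148, and COL3A1 and VWF were not. The part of these markers in the results was not tested. Shortened RNA raises the 3' to 5' ratio of ACTB probe sets, and the log2 of this ratio had its median at 0.32 in the 9 second 8 h arrays and at -0.04 in the 45 others. The ratio was highest, at 1.19 and 0.98, in the second 8 h arrays of TNF at 100 ng/ml and of insulin alone.

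With insulin alone, DEPP1 had its lowest mean of the 9 treatments. DEPP1, a FOXO-induced gene whose protein takes part in autophagy, had 25 and 20.5 at 4 h, 33.7 and 123 at 8 h and 22.6 and 24.1 at 16 h with insulin. Untreated cells had 279 and 243 at 4 h, 169 and 175 at 8 h and 30.8 and 24.2 at 16 h. At 16 h untreated cells had come down to signals near those of insulin-treated cells at 4 and 16 h. The log2 difference shrank over time, with -2.96 ± 0.31 at 4 h, -1.22 ± 0.31 at 8 h and -0.15 ± 0.31 at 16 h. That insulin array at 123 is the one with the high ACTB ratio, and without it and the TNF array of the highest ratio the mean difference was -1.70, against -1.44 ± 0.18 with all arrays. With 50 added to each signal it was -1.02, and as the mean of both DEPP1 probe sets it was also -1.02.

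HBP1, an HMG-box repressor that slows the cell cycle, had 214 and 176 with insulin at 4 h, against 535 and 755 in untreated cells. At 8 h it had 412 and 528 with insulin and 519 and 532 in untreated cells, and at 16 h 455 and 498 with insulin and 443 and 458 in untreated cells. Its difference was therefore early, -1.65 ± 0.18 at 4 h, -0.17 at 8 h and 0.08 at 16 h. YPEL5, a subunit of the CTLH ubiquitin ligase complex, was lower with insulin at each time. It had 188 and 175 with insulin at 4 h, against 372 and 390.0 in untreated cells, 216 and 245 against 437 and 469.6 at 8 h, and 402 and 453 against 605 and 543 at 16 h. The differences were -1.02, -0.94 and -0.42.

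IRS2, the adaptor below the insulin receptor, had 149 and 156 with insulin at 4 h, against 349.6 and 302 in untreated cells, with differences of -1.04 at 4 h, -0.61 at 8 h and -0.31 at 16 h. INSR, the receptor itself, had a median of 70.9 with insulin and 60.9 in untreated cells, and its array signals over all treatments ran from 7.01 to 129.5, below the filter of 138.9. No statement on its regulation can be made from these arrays. BCL6, a zinc finger repressor best known from germinal centre B cells, had 359 and 253 with insulin at 4 h and 375 and 453 in untreated cells, and its widest gap was at 8 h, with 240.3 and 268 with insulin against 500.0 and 419.5 in untreated cells. CITED2, which competes with hypoxia-inducible factor for the coactivators CBP and p300, differed by -0.61 ± 0.43 at 4 h, -0.90 at 8 h and 0.38 at 16 h. At 8 h it had 147 and 48.2 with insulin, the second of these on the array with the high ACTB ratio, against 179 and 162 in untreated cells. Without that array the mean difference was -0.14, against -0.38 with it. FOXO3, one of the factors themselves, and SESN1, a sestrin that restrains mTORC1, had mean differences of -0.10 ± 0.17 and -0.01 ± 0.19. Over the 8 genes the median difference was -0.51, against 0.02 over 8105 genes. Since this contrast is taken as the one that chose the genes, nothing follows from that gap or from the distance of single genes in it.

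**Figure D1:**
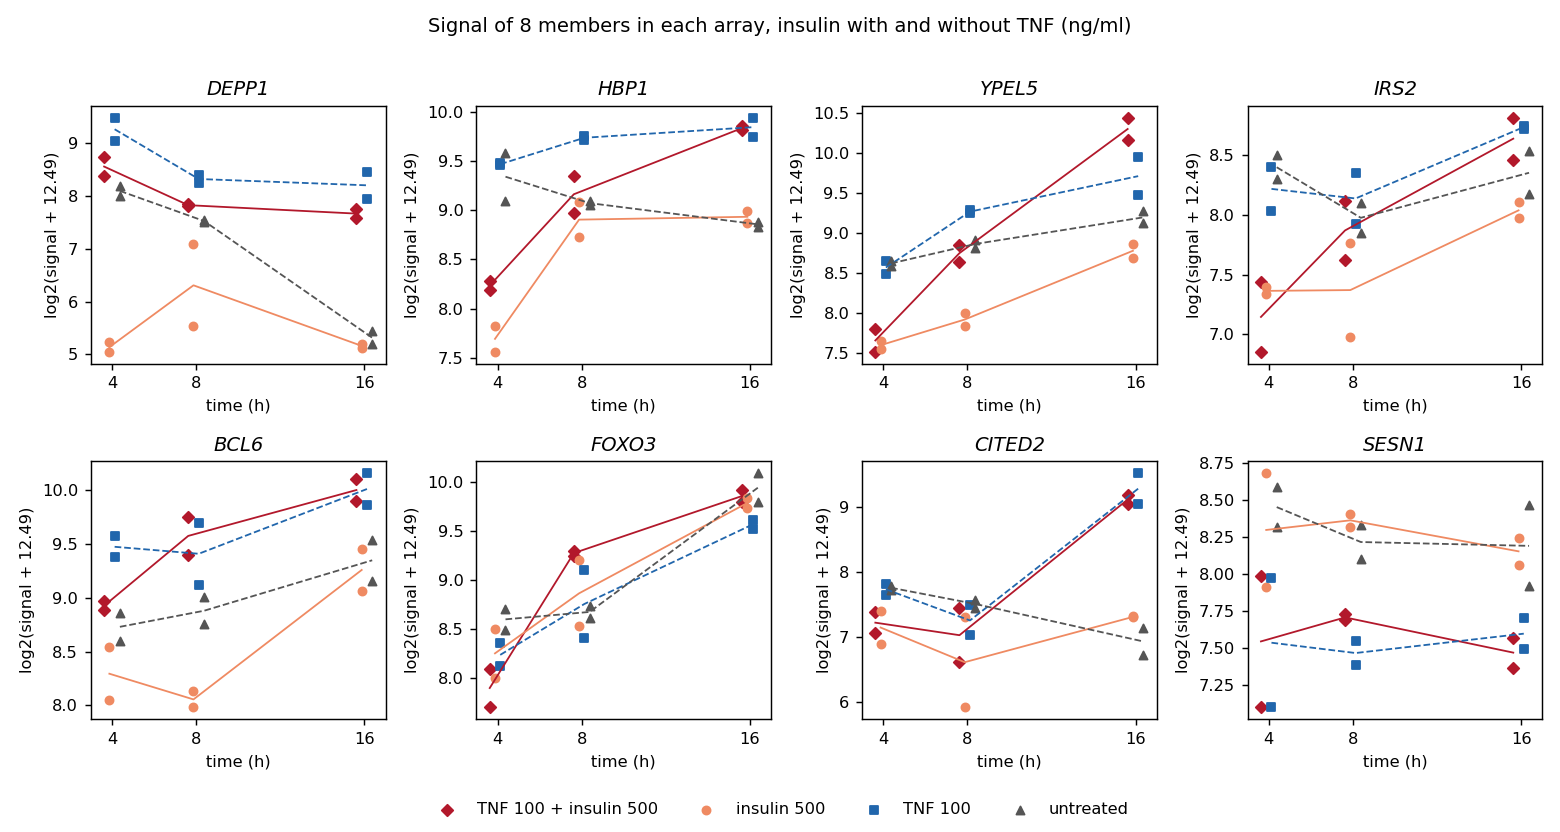
Each panel plots log2(signal + 12.49) of 1 gene against time (h) in each array (points) with group means (lines), for high TNF with insulin (100 and 500 ng/ml), insulin alone, high TNF alone and untreated cells. DEPP1 in untreated cells comes down from 279 and 243 at 4 h to 30.8 and 24.2 at 16 h, and HBP1 with TNF and insulin reaches the signals of TNF alone at 16 h.

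Insulin was also added to cells given TNF at 100 ng/ml, and this comparison uses no insulin-alone and no untreated array, although the genes were proposed with its results known. HBP1 and YPEL5 were lower with TNF and insulin than with TNF alone, 2 of 8 genes, where 0.0894% of all probe sets were called lower. Because these results were known when the genes were proposed, nothing follows from that count beside that share. HBP1 had 298 and 279.6 with TNF and insulin at 4 h, against 689.7 and 701 with TNF alone, then 491 and 639 against 828 and 852 at 8 h. At 16 h it had 913 and 887 with TNF and insulin and 969 and 846 with TNF alone. The arrays were apart at 4 and 8 h and overlapped at 16 h. The mean difference was -0.61 ± 0.10 (adjusted p = 0.000283 by limma), and at 4 h alone it was -1.23 ± 0.18 (adjusted p = 0.000229 by limma), where 0.0373% of all probe sets were called lower.

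YPEL5 had 170.4 and 211 with TNF and insulin at 4 h, against 390.5 and 345 with TNF alone, and 450.2 and 387 against 610.1 and 596 at 8 h. At 16 h the order was turned round, with 1373 and 1127 with TNF and insulin against 974 and 696 with TNF alone. The differences were -0.91, -0.52 and 0.59, and only that at 4 h passed on its own (adjusted p = 0.0134 by limma). The mean difference of -0.28 ± 0.10 (adjusted p = 0.00116 by limma) thus sums over both directions. Both calls were lost when only the arrays of the 2 treatments were fitted (adjusted p = 0.123 for HBP1 and 0.389 for YPEL5 by limma).

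DEPP1 and IRS2 did not pass in TNF-treated cells. DEPP1 had 321 and 412 with TNF and insulin at 4 h, against 701 and 515 with TNF alone, 212 and 216 against 291 and 324 at 8 h, and 178 and 203 against 234 and 338 at 16 h. All arrays were lower with insulin at 3 of 3 times, by -0.58 ± 0.18 (95% interval -0.95 to -0.21, adjusted p = 0.481 by limma). IRS2 had 103 and 161 with TNF and insulin at 4 h, against 325 and 250.1 with TNF alone, and a mean difference of -0.48 (95% interval -0.89 to -0.07, adjusted p = 0.507 by limma). Neither passed the adjustment over all probe sets. The second IRS2 probe set gave 0.00, and the mean of both gave -0.24. The remaining intervals were -0.38 to 0.12 for BCL6, -0.18 to 0.49 for FOXO3, -0.81 to 0.21 for CITED2 and -0.34 to 0.42 for SESN1. The median over the 8 genes was -0.29, against 0.00 over all genes.

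The insulin difference of DEPP1 at 4 h was -0.71 ± 0.31 in cells with TNF and -2.96 ± 0.31 in cells without. The insulin-alone signals at 4 h, 25 and 20.5, lie well under the filter of 138.9, so the size of the latter is not resolved. For HBP1 the values were -1.23 and -1.65, for YPEL5 -0.91 and -1.02, and for IRS2 -1.07 and -1.04. The difference between these differences includes the contrast taken as the one that chose the genes, and was not tested. With both factors DEPP1 had a median of 214 and a range of 178 to 412, against a median of 24.6 and a range of 20.5 to 123 with insulin alone. The insulin-alone arrays belong to the choosing contrast, so nothing follows from that distance.

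**Figure D2:**
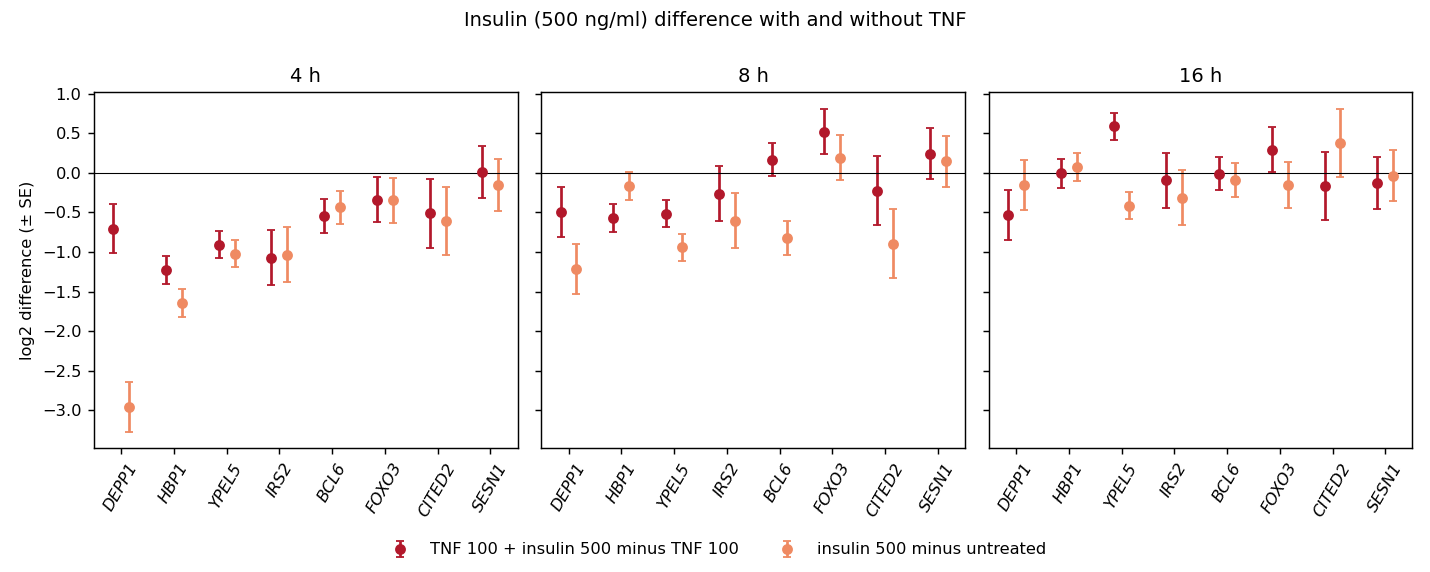
The plot gives the log2 difference (± SE of the fit) made by insulin at 500 ng/ml for 8 genes at 4, 8 and 16 h, in cells with TNF at 100 ng/ml (TNF and insulin minus TNF) and in cells without (insulin minus untreated). At 4 h DEPP1 lies at -0.71 with TNF and -2.96 without, and YPEL5 with TNF passes to 0.59 at 16 h.

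TNF at 100 ng/ml against untreated cells shares its untreated arrays with the choosing contrast. These arrays also enter TNF at 5 ng/ml and EGF alone against untreated cells, and time in untreated cells. The tests of whether the TNF difference depended on EGF or on time use them too. None of these tests is therefore independent of the choice of genes. With TNF at 100 ng/ml DEPP1, HBP1, YPEL5, BCL6 and CITED2 rose, 5 of 8 genes where 6.68% of all probe sets were called higher. SESN1 fell, where 9.62% were called lower, and IRS2 and FOXO3 did not pass. Among all calls 41% were higher, and 58.7% after median centring of the arrays. The median over the 8 genes was 0.44, against -0.09 over all genes.

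DEPP1 had 701 and 515 with TNF at 4 h, against 279 and 243 in untreated cells, 291 and 324 against 169 and 175 at 8 h, and 234 and 338 against 30.8 and 24.2 at 16 h. No array overlapped, and the gap was widest at 16 h, where untreated cells were near the lowest DEPP1 signals of the series. The mean difference was 1.61 ± 0.18 (adjusted p = 1.19e-08 by limma), with 1.17 at 4 h, 0.79 at 8 h and 2.88 at 16 h. HBP1 had 689.7 and 701 with TNF and 535 and 755 in untreated cells at 4 h, which overlapped, then 828 and 852 against 519 and 532 at 8 h, and 969 and 846 against 443 and 458 at 16 h. Its mean difference was 0.59 ± 0.10 (adjusted p = 5.17e-05 by limma).

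BCL6 had 746 and 652 with TNF at 4 h, against 375 and 453 in untreated cells, 814 and 545 against 500.0 and 419.5 at 8 h, and 917 and 1127 against 729 and 559 at 16 h. All arrays were higher with TNF at 3 of 3 times, by 0.64 ± 0.12 (adjusted p = 0.00159 by limma). As the mean of both BCL6 probe sets the adjusted p was 0.0508. CITED2 had 725 and 517 with TNF at 16 h, against 129 and 93.4 in untreated cells, a difference of 2.35 ± 0.43 (adjusted p = 0.000155 by limma), where 5.47% of all probe sets were called higher at 16 h. At 4 h it had 189 and 214 with TNF and 200.2 and 209 in untreated cells, and at 8 h 167 and 118 against 179 and 162. Its rise over the 3 times, 0.69 ± 0.25 (adjusted p = 0.00117 by limma), came from 16 h.

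SESN1 had 239 and 125 with TNF at 4 h, against 372 and 307 in untreated cells, 175 and 155 against 309.9 and 263 at 8 h, and 168 and 196 against 229 and 341 at 16 h. All arrays were lower with TNF at 3 of 3 times, by -0.75 ± 0.19 (adjusted p = 0.0243 by limma). YPEL5 rose by 0.29 ± 0.10 (adjusted p = 0.0444 by limma), with -0.05 at 4 h, 0.40 at 8 h and 0.51 at 16 h. These 2 calls were the weakest. Median centring ended the YPEL5 call (adjusted p = 0.194 by limma). Without the second 8 h arrays the adjusted p was 0.072 for SESN1 and 0.113 for YPEL5, and without the 2 arrays of the highest ACTB ratio it was 0.0586 and 0.0801 by limma. Leaving out single arrays lost the call of SESN1 in 6 of 12 cases and that of YPEL5 in 9 of 12, with adjusted p up to 0.109 for SESN1 without the second TNF array at 4 h and up to 0.267 for YPEL5 without the first TNF array at 16 h. FOXO3 differed by -0.22 (95% interval -0.56 to 0.12) and IRS2 by 0.12 (95% interval -0.29 to 0.53).

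TNF at 5 ng/ml gave a smaller set of calls. DEPP1, HBP1 and YPEL5 were called with a higher mean over the 3 times, 3 of 8 genes where 4.27% of all probe sets were called higher. DEPP1 had 371 and 348 with TNF at 5 ng/ml at 4 h, against 279 and 243 in untreated cells, 435 and 304 against 169 and 175 at 8 h, and 131 and 173 against 30.8 and 24.2 at 16 h. No array overlapped, and the mean difference was 1.17 ± 0.18 (adjusted p = 2.02e-05 by limma). HBP1 had 602 and 594 with TNF at 4 h, against 535 and 755 in untreated cells, and 535 and 558 against 519 and 532 at 8 h. Its gap was widest at 16 h, with 748.0 and 748.3 against 443 and 458. YPEL5 was lower with TNF at 4 h, with 336 and 293 against 372 and 390.0. It was higher at 8 h, with 554 and 494 against 437 and 469.6, and at 16 h, with 977 and 814 against 605 and 543. HBP1 (0.23 ± 0.10, adjusted p = 0.0487 by limma) and YPEL5 (0.19 ± 0.10, adjusted p = 0.0449 by limma) stood just under the threshold, and each lost its call in 10 of 12 fits that left out 1 array, with adjusted p up to 0.26 for HBP1 without the first untreated array at 16 h and up to 0.271 for YPEL5 without the first TNF array at 16 h. CITED2 had a mean difference of -0.42 ± 0.25 (adjusted p = 0.0836 by limma), which sums over both directions. It had 132 and 87.7 with TNF at 4 h, against 200.2 and 209 in untreated cells, and 139 and 30.8 against 179 and 162 at 8 h. At 16 h the order was turned round, with 276 and 137 with TNF against 129 and 93.4. With the replicate number of the 8 h arrays as a block the adjusted p of CITED2 was 0.0131 by limma. Without the first array of TNF at 5 ng/ml at 8 h the difference was -0.72 (adjusted p = 0.00307 by limma), and without the second, whose signal was 30.8, it was -0.12 (adjusted p = 0.264 by limma). As the mean of both CITED2 probe sets it was -0.38 (adjusted p = 0.0196 by limma). Both TNF comparisons share the untreated arrays.

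Between the 2 doses, TNF at 100 against 5 ng/ml, limma called 0 of 8 genes, where 1.27% of all probe sets were called in either direction. At an unadjusted p under 0.05 there were 3, DEPP1, HBP1 and CITED2, beside 9.77% of all probe sets. CITED2 was higher with the higher dose in all arrays at 2 of 3 times, by 1.11 ± 0.25 (adjusted p = 0.0538 by limma), with 725 and 517 at 100 ng/ml and 276 and 137 at 5 ng/ml at 16 h. With the 8 h replicate number as a block its adjusted p was 0.00573. Without the first TNF array at 5 ng/ml and 8 h the adjusted p was 0.00286 and without the first one at 16 h it was 0.0407. DEPP1 differed by 0.44 (95% interval 0.08 to 0.81) and HBP1 by 0.36 (95% interval 0.16 to 0.57), and both were called with TNF at either dose against untreated cells.

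**Figure D3:**
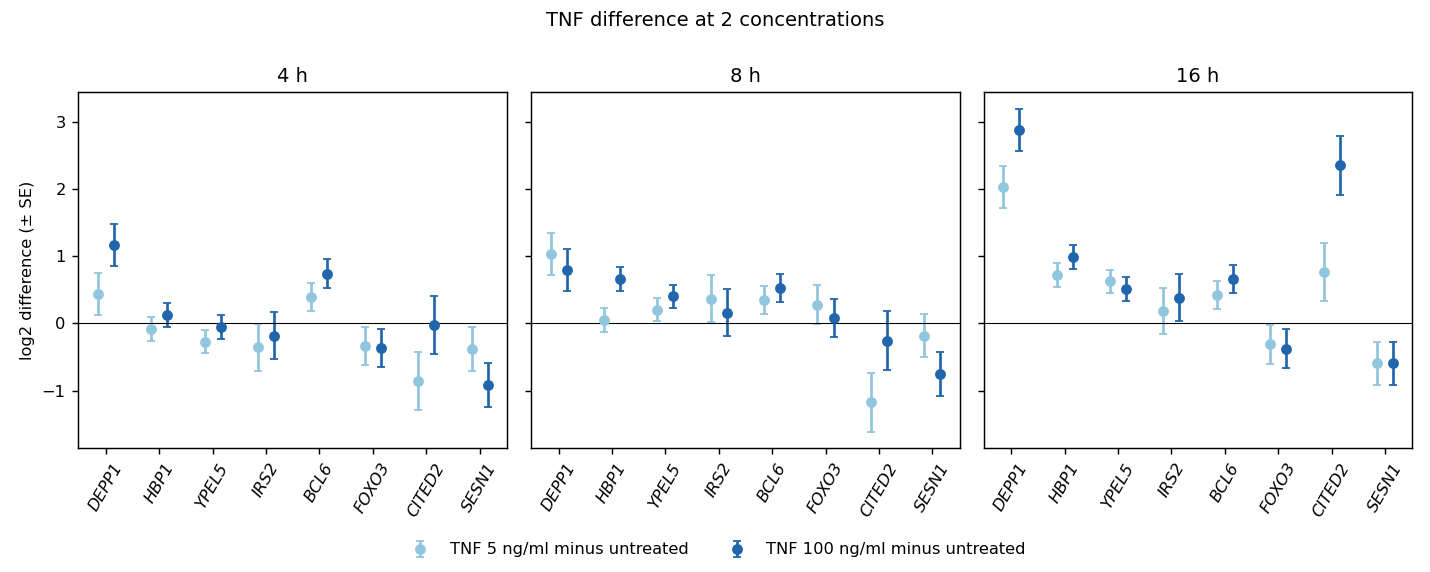
The plot gives the log2 difference (± SE of the fit) from untreated cells for 8 genes at 4, 8 and 16 h, with TNF at 5 ng/ml and at 100 ng/ml. DEPP1 and CITED2 at 16 h with TNF at 100 ng/ml stand highest, at 2.88 and 2.35, and SESN1 lies below 0 at both doses and at each time.

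EGF is a second growth factor that activates PI3 kinase and AKT through its own receptor. With EGF alone against untreated cells limma called 0 of 8 genes, where 0.589% of all probe sets were called. An unadjusted p under 0.05 was reached by 2, HBP1 and YPEL5, and by 5.8% of all probe sets. DEPP1 had 170.1 and 188 with EGF at 4 h, against 279 and 243 in untreated cells, 146 and 126 against 169 and 175 at 8 h, and 24.5 and 49.9 against 30.8 and 24.2 at 16 h. The arrays were apart at 4 and 8 h and overlapped at 16 h, and the mean difference was -0.19 (95% interval -0.55 to 0.18). HBP1 had 511 and 501 with EGF at 4 h, against 535 and 755 in untreated cells, and 436 and 510 against 519 and 532 at 8 h. At 16 h it was higher with EGF, 626 and 660 against 443 and 458. YPEL5 had 314 and 319 against 372 and 390.0 at 4 h, and 304 and 364 against 437 and 469.6 at 8 h. It too was higher at 16 h, 652 and 674 against 605 and 543. The mean differences of 0.01 for HBP1 and -0.16 for YPEL5 thus sum over both directions. IRS2 differed by -0.37 (95% interval -0.77 to 0.04) and SESN1 by -0.31 (95% interval -0.69 to 0.07).

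Adding EGF to TNF at 100 ng/ml also gave 0 calls by limma among the 8 genes, where 0.246% of all probe sets were called. An unadjusted p under 0.05 was reached by 3, DEPP1, YPEL5 and BCL6, and by 4.54% of all probe sets. DEPP1 had 342 and 475 with TNF and EGF at 4 h, against 701 and 515 with TNF alone, 159 and 181 against 291 and 324 at 8 h, and 244 and 227 against 234 and 338 at 16 h. The difference was -0.54 (95% interval -0.91 to -0.17, adjusted p = 0.928 by limma). The insulin comparison, which gave -0.58, shares the TNF arrays with this one. IRS2 was lower with EGF in all arrays at 3 of 3 times, by -0.51 (95% interval -0.91 to -0.10, adjusted p = 1 by limma), but the second IRS2 probe set gave 0.12, and the mean of both -0.19. BCL6 differed by -0.34 (95% interval -0.59 to -0.09, adjusted p = 0.972 by limma).

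The 2 growth factors were compared directly under TNF. HBP1 was higher with TNF and EGF than with TNF and insulin, 1 of 8 genes where 0.38% of all probe sets were called higher. It had 702 and 580.4 with TNF and EGF at 4 h, against 298 and 279.6 with TNF and insulin, 799 and 962 against 491 and 639 at 8 h, and 973 and 992 against 913 and 887 at 16 h. All arrays were higher with EGF at 3 of 3 times, by 0.62 ± 0.10 (adjusted p = 0.000485 by limma). When only the 2 treatments were fitted the adjusted p was 0.0969. DEPP1 and YPEL5 had differences of 0.04 (95% interval -0.33 to 0.41) and 0.11 (95% interval -0.09 to 0.31).

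In cells given EGF, DEPP1, HBP1 and YPEL5 were called with a higher mean over the 3 times with TNF at 100 ng/ml. These were 3 of 8 genes where 5.67% of all probe sets were called higher. The differences were 1.26 ± 0.18 for DEPP1 (adjusted p = 1.08e-06 by limma), 0.60 ± 0.10 for HBP1 (adjusted p = 0.000186 by limma) and 0.28 ± 0.10 for YPEL5 (adjusted p = 0.000621 by limma). YPEL5 was -0.43 at 4 h and 0.68 at 16 h, so its mean sums over both directions. DEPP1 at 16 h had 244 and 227 with TNF and EGF, against 24.5 and 49.9 with EGF alone. CITED2 differed by 0.61 ± 0.25 (adjusted p = 0.149 by limma), and its adjusted p was 0.0382 with the 8 h replicate block, 0.0372 without the 8 h arrays and 0.000815 as the mean of both CITED2 probe sets (0.67). SESN1 was lower with TNF in all arrays at 2 of 3 times, by -0.56 (95% interval -0.94 to -0.18, adjusted p = 0.151 by limma). The test of whether the TNF difference depended on EGF called 0 of 8 genes by limma, where 0.0298% of all probe sets were called. An unadjusted p under 0.05 in this interaction was reached by 0 of the 8, and by 2.66% of all probe sets. For DEPP1 that interaction was -0.35 (95% interval -0.87 to 0.17).

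At the lower doses, insulin at 5 ng/ml or EGF at 1 ng/ml was added to TNF at 5 ng/ml. Limma called 0 of 13422 probe sets in either comparison, a share of 0%. At an unadjusted p under 0.05 there were 276 probe sets with insulin and 558 with EGF, among them 0 of the 8 genes with insulin and 1, DEPP1, with EGF. DEPP1 had 312 and 274 with TNF and insulin at 4 h, against 371 and 348 with TNF alone, 338 and 374 against 435 and 304 at 8 h, and 229 and 221 against 131 and 173 at 16 h. With EGF it had 286 and 281 at 16 h. HBP1 had 536 and 706 with TNF and insulin at 4 h, against 602 and 594 with TNF alone. The 95% intervals for insulin at 5 ng/ml were -0.13 to 0.28 for HBP1, -0.22 to 0.19 for YPEL5, -0.29 to 0.44 for DEPP1 and -0.67 to 0.15 for IRS2. With insulin at 500 ng/ml on TNF at 100 ng/ml the differences were -0.61 for HBP1 and -0.28 for YPEL5. Each carries its own error, and the YPEL5 value sums over both directions. Both doses differ between the comparisons, and the gap between them was not tested.

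Several genes moved with time alone. The untreated arrays are also part of the choosing contrast, so their change over time is not independent of the choice of genes. In untreated cells FOXO3 had 403 and 347 at 4 h, 379 and 412 at 8 h and 1076 and 873 at 16 h, a rise of 1.34 ± 0.29 at 16 h over 4 h (adjusted p = 0.00126 by limma over 8 and 16 h). DEPP1 fell by 2.78 ± 0.31 on the log2 scale (adjusted p = 1.02e-07 by limma). Its 16 h signals of 30.8 and 24.2 lie well under the filter of 138.9, so the size of differences against them is not resolved. With 50 added to each signal the difference was -2.01, the mean difference with high TNF was 1.29, and the growth of that difference from 4 to 16 h was 1.03, all called. These were 1 of 8 genes higher and 1 lower, where 5.69% and 3.87% of all probe sets were called. Without the first untreated array at 16 h the FOXO3 call was lost (adjusted p = 0.0694 by limma). With the 8 h replicate block BCL6 was called as well (0.62, adjusted p = 0.0441 by limma, against 0.113 without it). Without the 8 h arrays 4 genes were called, YPEL5 and BCL6 being added.

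With TNF at 100 ng/ml, FOXO3 had 314 and 265 at 4 h, 327 and 535 at 8 h and 718 and 771 at 16 h, a rise of 1.33 ± 0.29 at 16 h over 4 h (adjusted p = 0.00228 by limma). YPEL5 rose by 1.14 ± 0.17 (adjusted p = 2.19e-05 by limma) and CITED2 by 1.55 ± 0.43 (adjusted p = 0.00138 by limma), and DEPP1 fell by 1.06 ± 0.31 (adjusted p = 0.0183 by limma). These 3 rises and 1 fall stand beside 11.6% of all probe sets called higher and 10.6% called lower. The CITED2 call was lost without the first TNF array at 16 h (adjusted p = 0.0547 by limma), and the DEPP1 call without that array (0.0736) or the first one at 4 h (0.255), and as the mean of both DEPP1 probe sets (0.232). BCL6 was called with the 8 h replicate block (0.54, adjusted p = 0.0438 by limma, against 0.0581 without it), and without the first TNF array at 8 h (adjusted p = 0.0147 by limma).

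The TNF difference itself changed with time for DEPP1 and CITED2, 2 of 8 genes where 1.29% of all probe sets were called higher. From 4 to 16 h the difference between TNF and untreated cells grew by 1.72 ± 0.44 for DEPP1 (adjusted p = 0.00731 by limma) and by 2.37 ± 0.61 for CITED2 (adjusted p = 0.0147 by limma). Both calls depended on single arrays at 16 h. The DEPP1 call was lost without the second untreated array (adjusted p = 0.0592 by limma) or the second TNF array (0.101), and the CITED2 call without the first TNF array (0.13) or the second untreated array (0.107). Without the second untreated array neither was called. As the mean of both DEPP1 probe sets the adjusted p was 0.327, and for CITED2 it was 0.0555 after median centring. HBP1 was called as well without the first untreated array at 4 h (adjusted p = 0.0472 by limma).

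The order of the 9 treatments, by the mean over 6 arrays, is a description. DEPP1 was highest with TNF at 100 ng/ml and lowest with insulin alone, a span of 3.06 on the log2 scale. The genes are taken as chosen for a low signal with insulin alone, so its distance from the others is not set against a spread. Among the other treatments, the DEPP1 gaps below TNF at 100 ng/ml and below TNF at 100 ng/ml with insulin were wider than its replicate SD of 0.31, and the other neighbours lay within it. For HBP1 (SD 0.16) the gaps below TNF at 100 ng/ml and below TNF at 5 ng/ml were wider, 0.29 and 0.22. For YPEL5 (SD 0.15) that below untreated cells was, 0.16, and for BCL6 (SD 0.21) that below TNF at 5 ng/ml with insulin, 0.24. HBP1, YPEL5, BCL6 and IRS2 also had insulin alone at the bottom. For IRS2 (SD 0.36) no neighbours differed by more than the SD. The same was true of FOXO3 (SD 0.30), whose whole span was 0.24, of CITED2 (SD 0.45) and of SESN1 (SD 0.33), which was highest in untreated cells.

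**Figure D4:**
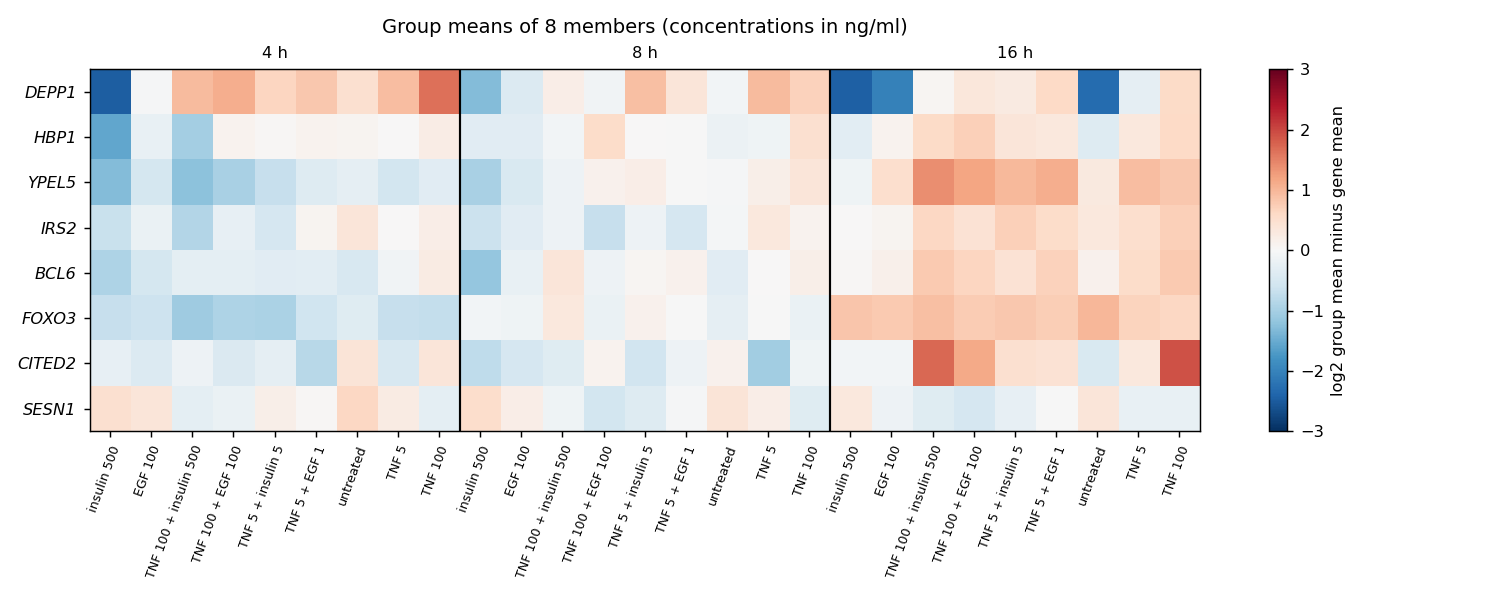
The heat map shows the log2 group mean minus the mean over 27 groups (color scale from -3 to 3) for 8 genes in rows and 9 treatments at 4, 8 and 16 h in columns (ng/ml). DEPP1 is lowest with insulin alone and, at 16 h, in untreated cells and with EGF alone, and CITED2 is highest at 16 h with TNF at 100 ng/ml.

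Where genes had a second kept probe set of their own, the 2 correlated over 54 arrays by 0.66 for DEPP1, 0.47 for IRS2, 0.59 for BCL6 and 0.83 for CITED2. The second DEPP1 probe set was lower with insulin alone at 4 h by -1.07, less than the -2.96 of the first, and high TNF against untreated cells gave a difference of 1.07 (adjusted p = 0.0957 by limma). The median signal of the second was 112, below the filter signal of 138.9. The size of the DEPP1 differences is therefore that of 1 probe set.

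Other genes of the pathway were counted from lists compiled with earlier results of these data known. Of 34 insulin signalling genes 27 were measured, and under high TNF, relative to untreated cells, 4 rose, 6 were called lower and 17 did not pass, beside 6.68% higher and 9.62% lower of all probe sets. FOXO1, the FOXO factor of insulin target tissues, rose by 1.49 ± 0.13 (adjusted p = 1.52e-10 by limma) and SGK1, a kinase related to AKT, by 1.27 ± 0.11 (adjusted p = 1.35e-10 by limma). GSK3B, a kinase that AKT inhibits, rose by 0.65, and INPPL1, which removes a phosphate from the lipid product of PI3 kinase, fell by 0.66. One of the 6, PIK3R3, had a mean difference of only -0.02. The list median was -0.02, against -0.09 over all genes. With insulin added to TNF, 0 of 27 were called by limma. Of the 27, 3 had an unadjusted p under 0.05, beside 8.02% of all probe sets.

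Of 28 other FOXO targets 15 were measured. Under high TNF, relative to untreated cells, 2 rose, 5 fell and 8 did not pass, beside the same shares. TNFSF10, the death ligand TRAIL, rose by 1.91 ± 0.10 (adjusted p = 4.68e-17 by limma) and GADD45A, a growth arrest and DNA damage gene, fell by 1.495 ± 0.206 (adjusted p = 9.9e-06 by limma). CAT, which encodes catalase, fell by 0.91, and MXI1, a MYC antagonist, by 0.46. With insulin added to TNF 1 of 15 was called, GADD45A, and it was higher (0.77 ± 0.21, adjusted p = 0.0141 by limma), where 0.417% of all probe sets were called higher. With insulin alone against untreated cells the list median was -0.27, without a test. Under TNF, EGF against insulin gave CCNG2, an unconventional cyclin, higher (1.04), and TXNIP (-0.51) and GADD45A (-0.36) lower, 3 of 15, where 0.38% of all probe sets were called higher and 0.603% lower. Of 15 relatives of the members 3 were measured, FOXO1, IRS1 and IGF1R, and with TNF FOXO1 rose and IRS1, the adaptor related to IRS2, fell by 0.71.

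Across the 27 group means, which share treatments and arrays, the 8 genes did not follow 1 profile. The highest correlations were 0.86 between YPEL5 and BCL6 and 0.83 between YPEL5 and FOXO3, and the lowest was -0.65 between BCL6 and SESN1. Against the mean of the other 7 genes, r was 0.89 for YPEL5, 0.85 for IRS2, 0.81 for BCL6 and 0.70 for HBP1, but 0.04 for DEPP1 and -0.56 for SESN1. The 8 genes outside the set most like the mean profile were DECR1, TRIM22, GRB7, SPTLC2, DAPK1, IFI27, LAMP3 and TRIM21, with r between 0.876 and 0.891. Single genes most like a member were VNN1 for DEPP1 (r = 0.838), KLHL24 for HBP1 (0.810), TMEM140 for YPEL5 (0.931), CTDSP2 for IRS2 (0.839), ASS1 for BCL6 (0.929), RGS3 for FOXO3 (0.972), IFNB1 for CITED2 (0.873) and DLEU1 for SESN1 (0.871).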

How the data were processed

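RNA of 54 HT-29 arrays was measured in 27 groups. The deposited values are linear signal intensity values per probe set, made by the authors with MAS5 per the submitters' processing notes, with no detection calls in the table used here. With 2% of values trimmed from either end, each array averaged 500.2, and the scaling was left as deposited. Array medians lay between 110.9 and 168. Of 22283 probe sets 68 controls were left out, and 12.49, the 10th percentile of all signals, was added before log2. Probe sets stayed in when 1 or more group means reached 7.24, the median of all values (a signal of 138.9). Of all probe sets, 19065 have 1 symbol in the platform annotation, 1043 have several and 2107 have none.

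The model (limma 3.58.1, R 4.3.3) covered all arrays with 1 mean per group, 27 residual degrees of freedom and robust, trend-based moderation (median prior degrees of freedom 6.95). Each comparison used the F test over 3 times, with the direction of their mean. Comparisons over time used the F test over both contrasts against 4 h, with the direction of 16 h minus 4 h. The fit was tested on simulated data with noise independent between arrays. For high TNF against untreated cells it recovered 23.9% of log2 changes of 0.5 and 74.6% of changes of 1. For insulin added to TNF these shares were 16.4% and 73.1%, and for the interaction of TNF with time 1.49% and 17.9%. A gene that did not pass can thus hold a change of this size. Each gene is described by its kept probe set of highest mean. Named genes are the 9 members, up to 4 called genes a list (insulin signalling, other FOXO targets, relatives) and the genes most alike over group means. Members and lists were chosen with earlier results of these data known. The labels describe biological duplicates, and p measures the spread between these arrays.

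Arrays sharing a replicate number counted as paired at a time if all group pairs had residual correlations over 0.1. That was so at 8 h (36 of 36 pairs, 0.286 to 0.576), and not at 4 h (27 of 36) or 16 h (31 of 36). The median correlation was still 0.20 at 4 h and 0.205 at 16 h. The main fit had no replicate block at any time, and blocks were used only among the alternatives. Alternatives were other pseudocounts, filters, scalings and fits, replicate blocks, arrays left out, and the mean of a gene's probe sets. Leaving out both arrays of the highest ACTB ratio was added after the data were seen.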

Additional observations from a re-analysis of the deposited data

Results flagged for a closer look

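The TNF difference at 100 ng/ml differed between times for DEPP1 and for CITED2, by limma's interaction of treatment with time. For DEPP1 the difference between TNF and untreated cells was 1.72 larger on the log2 scale at 16 h than at 4 h (adjusted p = 0.00731 by limma). DEPP1 signals at 16 h were 234 and 338 with TNF, against 30.8 and 24.2 in untreated cells. For CITED2 the difference was 2.37 larger at 16 h than at 4 h (adjusted p = 0.0147 by limma), with 725 and 517 with TNF at 16 h, against 129 and 93.4 in untreated cells. Each rests on 2 arrays a group, and the calls without single arrays are given with the results.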

How the results depend on the processing

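For the 8 genes, 112 results were each refitted under the alternatives, in 2996 comparisons. The side of the threshold stayed in 2889, 71 lost a call, 36 gained one, and 0 reversed a called direction. Direction was compared only where a fit gave a call, so uncalled differences could change sign among the 2889. The number of genes called with low TNF against untreated cells, 3 in the report, was 1 with no filter, with median centring, with only the treatments compared, and without the second 8 h arrays, and 5 with the replicate block within time. It was 4 with the replicate block over all times or at 8 h, and ran from 1 to 2 over the fits that left out 1 array. The number with high against low TNF, 0 in the report, was 1 with 50 added to the signals, with a stricter filter, with the replicate block over all times or at 8 h, without the second 8 h arrays, without all 8 h arrays, without both arrays of the highest ACTB ratio, and with the mean of probe sets, and 2 with the replicate block within time. It ran from 0 to 1 with 1 array left out. For insulin added to TNF (2 genes) and for EGF against insulin under TNF (1 gene), 0 were called when only the treatments compared were fitted, where fewer arrays estimate the spread, and 2 and 1 in every fit that left out 1 array. Over time in untreated cells (2 genes) 4 were called without the 8 h arrays, and 1 to 2 with 1 array left out. Over time under TNF (4 genes) it was 2 to 5 with 1 array left out. The interaction of TNF with time (2 genes) kept 1 call with median centring and 1 with the mean of probe sets, and 0 to 3 with 1 array left out. High TNF against untreated cells (6 genes) kept 4 to 6 with 1 array left out. Beside the values printed in the report, the replicate block at 8 h changed no other call. Unless a value shows it, the cause was not tested.

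The number of all probe sets called moved by over 1.5 times for several comparisons. For high TNF against untreated cells it was 2187, against 1449 with median centring, 1197 with only the treatments compared and 3342 with the replicate block within time. For insulin added to TNF it was 68, against 22 with median centring, 3 with only the treatments compared, 376 with the replicate block within time and 168 with that at 8 h. For low TNF against untreated cells it was 916, against 503 to 1707, for TNF in cells given EGF 1930, up to 3119, for time in untreated cells 1283, against 405 to 2172, for time under TNF 2979, down to 1600, for the interaction of TNF with EGF 4, against 0 to 13, and for EGF added to low TNF 0, up to 1. With 1 array left out, the low-dose counts of 0 reached 5 with EGF and 3 with insulin. For high against low TNF it was 171, against 51 to 497, for EGF alone 79, against 14 to 204, for EGF added to TNF 33, against 3 to 72, for EGF against insulin under TNF 132, against 4 to 545, and for the interaction of TNF with time 322, against 111 to 733. The share of calls that were higher also moved with the scaling. For high against low TNF it was 50.3%, against 72.1% with median centring and 61.4% with quantile normalization, and for EGF added to TNF 57.6%, against 78.6% with median centring. With 2 arrays a group, no detection calls and dim probe sets such as those of INSR, small differences are not resolved.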
